A study of Schizosaccharomyces pombe with 8 samples.

Results

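Of 14440 splice junctions listed for fission yeast, Schizosaccharomyces pombe, 351 carried the class that the authors used for pairings of splice sites other than those of their annotated introns. All 351 rows of that class were taken. They held 50117 spliced reads over 8 libraries and fell into kinds that differ in nature. Exact introns of the reference annotation that each hold a small nucleolar RNA (snoRNA) gene made up 13 of them, with 49068 reads (97.9%). A further 336 joined the 5′ site of 1 annotated intron to the 3′ site of a later intron of the same gene, so that every exon between them was left out, and these had 1041 reads (2.08%). The last 2 shared a single annotated end and had 8 reads. The class name therefore describes exon skipping for nearly all of its rows and for few of its reads.

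Poly(A) RNA was sequenced from cells carrying temperature-sensitive alleles of splicing factors, grown at 25 °C and moved to 37 °C for 15 min before collection. The mutant strains, each with 1 library, were prp10-R379H, prp22-V801M;G917R, cwf22-G191D, sap114-A152V, prp1-G705D and ntr1-W597R. WT was strain ED666, with 2 libraries that received the same shift, so no library stands for cells kept at 25 °C. Each mutant strain carries 1 allele from 1 library, so the effect of an allele and of its library cannot be told apart, and nothing in the labels says that the WT libraries came from separate cultures. The p-values then measure the spread between these libraries, which may be technical. Junction counts cannot check the alleles, because they hold no base calls.

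In exon skipping, the spliceosome joins the 5′ splice site of an upstream intron to the 3′ splice site of a downstream intron and removes the exon between them together with both introns. Fission yeast introns are short, and their splice sites are thought to be paired mostly across the intron, so skipped exons are rare in this species. Many snoRNAs, which guide the chemical modification of ribosomal RNA, are cut out of introns of protein-coding genes after splicing, and the box C/D family carries the short boxes UGAUGA and CUGA near its ends.

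The sequences that follow show the 3 exon-skipping pairings with 30 or more reads, which are the only ones described singly. They were read from the reference assembly ASM294v3 at the coordinates of the table, whose build is ASM294v2 per the submitters' processing notes. The match of the builds was tested on the annotated introns: 5134 of 5143 began with GT and ended with AG at those positions, as did all 351 junctions of the class. In the first line of each gene the skipped exon is in capitals, with the end of the intron before it and the start of the intron after it in lower case. The next lines give the first 10 and last 20 bases of the stretch removed by the skip, with the first 6 and last 3 bases in capitals. ubc4 (chrII:715512-715619, plus strand), rps13 (chrI:2746293-2746355, minus strand) and tif313 (chrI:386438-386624, plus strand) are all coding across the exon shown.
ubc4 exon: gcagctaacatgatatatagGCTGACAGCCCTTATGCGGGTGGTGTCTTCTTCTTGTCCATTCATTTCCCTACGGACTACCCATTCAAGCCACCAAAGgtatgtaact
ubc4 start of the removed stretch: GTAAGTcgcg
ubc4 end of the removed stretch: aactaacagcatattcgTAG
rps13 exon: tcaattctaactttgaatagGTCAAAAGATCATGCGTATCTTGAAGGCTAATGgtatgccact
rps13 start of the removed stretch: GTATGTtaaa
rps13 end of the removed stretch: gtgtgctgacagagtgaTAG
tif313 exon: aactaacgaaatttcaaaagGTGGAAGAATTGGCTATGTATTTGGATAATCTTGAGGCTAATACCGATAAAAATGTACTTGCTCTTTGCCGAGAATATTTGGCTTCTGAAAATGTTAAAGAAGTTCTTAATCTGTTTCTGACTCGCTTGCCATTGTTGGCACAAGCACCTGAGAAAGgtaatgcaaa
tif313 start of the removed stretch: GTATGTcgct
tif313 end of the removed stretch: ctattactaacacgaaaCAG

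The intron of rps3 is shown because it held more reads than any other junction of the class (chrII:4239039-4239290, minus strand), with the annotated gene snR48 in capitals. Its TGATGA letters start at base 52 of the intron and straddle the annotated start of snR48. The ends of the introns of ero11 (chrII:2720591-2720757, minus strand) and spt20 (chrI:5369560-5369727, minus strand) are shown because they had the lowest ratios of mutant to WT mean among the snoRNA introns with over 300 reads, with the first 6 and last 3 bases in capitals.
rps3 intron: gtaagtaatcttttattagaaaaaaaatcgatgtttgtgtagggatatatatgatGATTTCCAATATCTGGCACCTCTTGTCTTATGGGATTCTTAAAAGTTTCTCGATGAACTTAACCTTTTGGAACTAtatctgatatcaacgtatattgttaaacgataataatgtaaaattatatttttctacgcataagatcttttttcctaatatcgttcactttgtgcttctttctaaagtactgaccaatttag
ero11 intron start: GTATGTcaaa
ero11 intron end: ttaatttactaacatctTAG
spt20 intron start: GTAAGGcaat
spt20 intron end: gagttattactaacccaTAG

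Reads were spread very unevenly over the 351 junctions. No read was counted at 111 of them in any library, 93 had 1 read, 115 had 2 to 9, 16 had 10 to 29 and 16 had 30 or more. Those last 16 were the 13 snoRNA introns with the pairings of ubc4, rps13 and tif313. The 3 junctions with the most reads, in rps3, rpl701 and cpc2, held 38081 reads, or 76.0% of the class, and all of them were snoRNA introns. Nearest to the minimum of 30 were a junction with 40 reads inside it (fta3) and one with 28 reads outside it. Unspliced counts were 0 at every junction of the class, so that the unspliced form of the snoRNA introns was not measured.

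**Figure D1:**
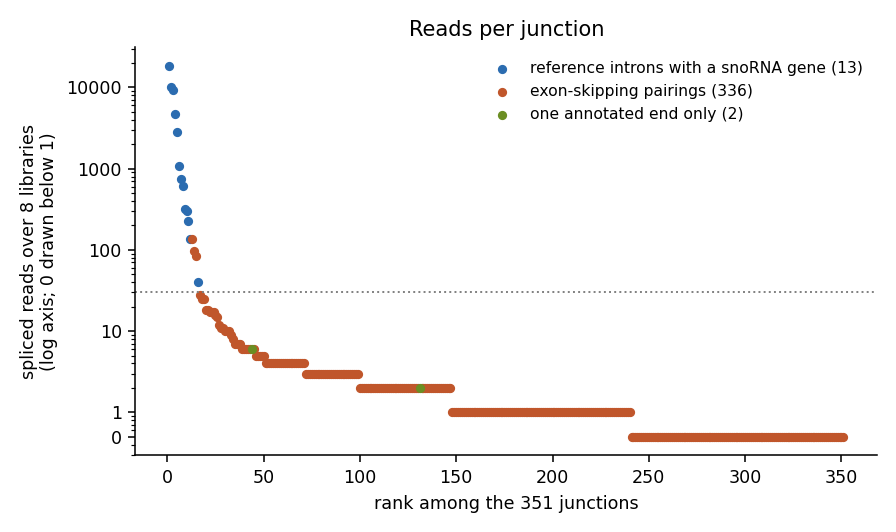
Spliced reads over the 8 libraries (log axis, 0 drawn below 1) for each of the 351 junctions, ordered by reads and coloured by kind; the dotted line marks 30 reads. The 13 reference introns with a snoRNA gene fill the top ranks, and 3 exon-skipping pairings lie above the line among them.

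The snoRNA introns were a complete set. The reference annotation has 13 introns that hold a snoRNA or snRNA gene, and all 13 stood in this class and in no other. None of the other 338 junctions was a reference intron. No snoRNA intron shared an end with an intron the authors classed as annotated. The plot of reads by rank shows them ahead of nearly every exon-skipping pairing. Why these introns were classed with the alternative pairings was not tested.

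The host genes had related roles in several cases. They encode the ribosomal protein uS3 (rps3, host of snR48), an L7-like ribosomal protein (rpl701, snoR39b), the ribosome-associated RACK1 protein (cpc2, snoU24b), the gamma subunit of translation elongation factor 1 (SPAC29A4.02C, snoR38) and the ribosome assembly factors Rlp7 (snoR39a) and Nog2 (snR191). Other hosts encode IMP dehydrogenase of GMP synthesis (gua1, snoR54), the purine synthesis enzyme amidophosphoribosyltransferase (ade4, snoR58), an oxidoreductin that drives disulfide formation in the endoplasmic reticulum (ero11, snoU18) and a subunit of the SAGA transcription coactivator (spt20, snoU24). The last hosts were pfd1, a prefoldin subunit (snoZ15), ipa1, an mRNA processing protein (SPNCRNA.498), and fta3, a CENP-H-like kinetochore protein (snoR47).

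These introns were long. Their median length was 253 nt, from 157 to 481 nt, against 56 nt for all annotated introns of the table. The snoRNA gene began 24 to 266 nt after the 5′ splice site and ended 49 to 258 nt before the 3′ splice site, with a median of 88 nt. The intron lay between coding exons in 8 hosts, in the 3′ untranslated region in 4 and in the 5′ untranslated region in 1, and 10 hosts had no other intron. TGATGA followed at least 30 nt later by CTGA, on the gene's strand, was found in 7 of the 13 (53.8%) and in 12 of the 497 annotated introns of the same length range (2.41%). On the other strand the counts were 0 and 10. Other listed junctions that used an end of a snoRNA intron numbered 21 and had 161 reads beside 49068, or 0.327%. That share was highest at ade4, at 8.40%.

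Since no annotated intron competes with the snoRNA introns, they were compared as spliced reads per 100,000 spliced reads of all annotated introns, which numbered 293918 (cwf22) to 740673 (WT replicate 2) per library. In bulk RNA such a value moves with the transcript's level as well as with its splicing, and fewer cells with a transcript and less of it per cell cannot be told apart. The 13 introns as a whole had 1166 and 1235 such reads in WT and 1358 (prp1) to 1618 (cwf22) in the mutants. All 6 mutants lay above both WT libraries. Without rps3, rpl701 and cpc2 the order turned round. The other 10 introns had 357 and 332 in WT and 240 (ntr1) to 328 (prp1) in the mutants. All 6 mutants then lay below both WT libraries. That order was common on this scale: 24.9% of the 5030 junctions tested below had it, and 7.08% had all 6 mutants above. Scaled by the total of annotated spliced reads, those 5030 junctions had a median log2 difference of -0.27. These are values of single junctions, so they do not say how often a sum of 10 introns would have that order. The sum had means of 344 in WT and 294 in the mutants, and ero11 alone had 51.4 and 19.5. The means of gua1 (73.2 and 83.5) and rlp7 (21.1 and 21.3) were higher in the mutants.

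The 3 most-read introns stood higher in every mutant. The rps3 intron had 366 and 441 reads per 100,000 in WT, and 591, 576, 655, 612, 490 and 597.4 in prp10, prp22, cwf22, sap114, prp1 and ntr1. The rpl701 intron had 241 and 244 in WT, and 334, 336, 351, 306, 261 and 336 in the mutants in that order. The groups did not overlap at either intron, and prp1 was the mutant nearest WT at both. The cpc2 intron had 202 and 219 in WT, and 278, 303, 301, 253, 279 and 328 in the mutants. Here, too, the groups did not overlap, with sap114 nearest WT. The group means were 403 ± 52.9 (SD, n = 2) and 587 ± 54.6 (n = 6) for rps3, 243 ± 1.65 and 321 ± 32.9 for rpl701, and 210 ± 12 and 290 ± 25.7 for cpc2.

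Other snoRNA introns stood lower. The ero11 intron had 51.2 and 51.6 reads per 100,000 in WT, and 17.7 in prp10 and 28.2 in prp22, 14.6 in cwf22 and 12.9 in sap114, and 32.3 in prp1 and 11.1 in ntr1. The spt20 intron had 18.3 and 14.7 in WT, and 3.61, 8.00, 1.36, 1.32, 12.1 and 2.72 in the mutants in the same order. In both genes all mutants lay below both WT libraries, prp1 lay nearest to WT, and the intron is in the 3′ untranslated region. The ipa1 intron, on few reads, had 5.12 and 7.02 in WT and 0.990 (ntr1) to 4.30 (sap114) in the mutants. The fta3 intron had 3 and 21 reads in the WT libraries and 0 to 10 in the mutants, with 0 in sap114 and ntr1. The groups overlapped for fta3 and for the other 6, in SPAC29A4.02C, gua1, rlp7, nog2, pfd1 and ade4. SPAC29A4.02C ranged from 125 to 145 over all 8 libraries. Of the 5030 junctions of every class with 30 or more reads, 7.08% had all 6 mutants above both WT libraries and 24.9% had all 6 below; of the 13 introns 3 were above and 3 below.

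**Figure D2:**
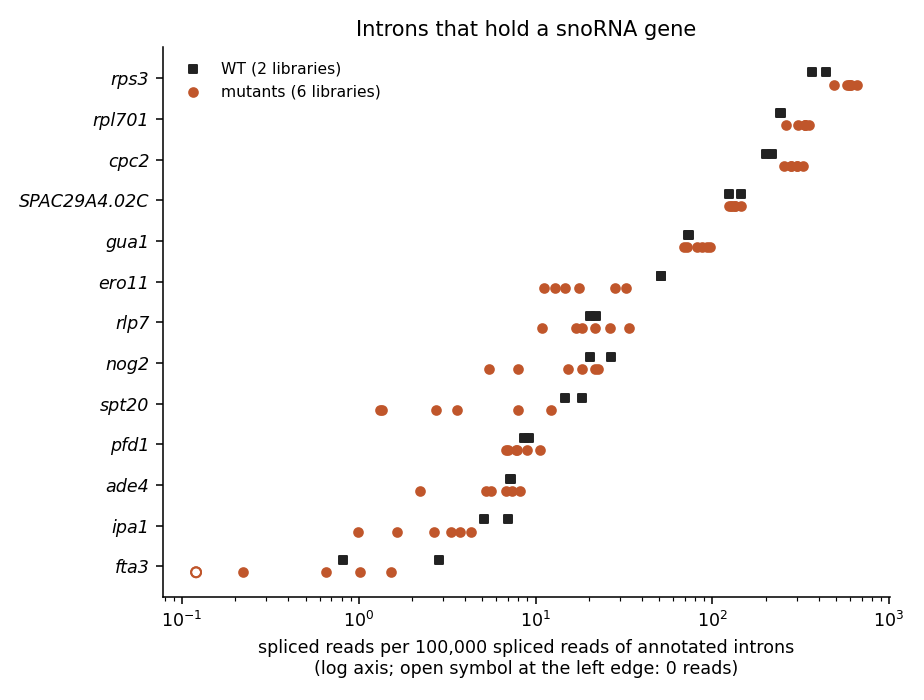
Spliced reads per 100,000 spliced reads of annotated introns (log axis) for the 13 introns that hold a snoRNA gene, in the 2 WT libraries (squares) and the 6 mutant libraries (circles); open symbols at the left edge are libraries with 0 reads. The mutants lie to the right of WT at rps3, rpl701 and cpc2 and to the left at ero11, spt20 and ipa1.

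Tested as scaled counts over all 5030 junctions, mutants as a class against WT, 1 snoRNA intron passed. The count used edgeR's quasi-likelihood test, scaling by the trimmed mean (TMM) of the annotated introns and Benjamini-Hochberg adjustment at 0.05. The ero11 intron fell by 1.12 on the log2 scale (SE 0.286, adjusted p = 0.045), and 2.11% of the junctions tested were called lower. No snoRNA intron was called higher, where 1.63% were called. The log2 differences were 0.83 for rps3 (adjusted p = 0.053), 0.75 for cpc2 (0.058), 0.69 for rpl701 (0.078), -1.39 for spt20 (0.092), -0.88 for ipa1 (0.20) and -1.38 for fta3 (0.25) in that edgeR fit. At an unadjusted p under 0.05 the introns of rps3, rpl701, cpc2 and gua1 were on the higher side, as were 12.8% of the 5030 junctions, and those of ero11, spt20 and ipa1 on the lower, as were 12.2%. The ero11 call rests on few libraries: in edgeR its adjusted p was 0.10 without cwf22, 0.051 without ntr1, 0.060 without sap114, 0.075 without prp10, and 0.41 and 0.36 without WT replicate 1 or 2. With DESeq2 the introns of rps3, rpl701 and cpc2 passed as well, with adjusted p of 0.0069, 0.023 and 0.0079. That fit called more junctions higher in general, 201 of the 5030 against 82 in edgeR.

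Set beside other introns in the same fit, the 13 had a median log2 difference of 0.17, with 7 above 0. The 4360 annotated introns tested had a median of -0.05, and the 446 of them in the length range of the 13 had -0.07. The 91 introns of ribosomal protein genes had a median of 0.81, and 85 of them (93.4%) lay above 0. The values of rps3, rpl701 and cpc2, at 0.69 to 0.83, were near that median. Scaling by the total of annotated spliced reads shifted the median of all junctions to -0.27 and that of the 13 introns to -0.11, with 5 above 0. The number above 0 thus depends on the scaling. The distance between the medians was 0.16 to 0.17 across the scalings tried. A change of scaling moves all junctions by about the same amount, so that distance was bound to stay and is no check.

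Fitted strain by strain against WT, the direction of each called snoRNA intron was the same wherever it passed. These fits have 1 residual degree of freedom, from the WT pair, and assume that a lone mutant library varies like WT. By edgeR with adjustment over 5030 junctions, the intron of ero11 was lower in all 6 strains and that of cpc2 higher in all 6. The introns of rps3 and rpl701 were higher in 5 strains, all but prp1, where their adjusted p was 0.13 and 0.58. The spt20 intron was lower in 4 strains, prp10, cwf22, sap114 and ntr1, with log2 differences from -3.28 (cwf22) to -1.97 (prp10). The gua1 intron was higher in prp10, prp22 and cwf22, rlp7 higher in prp22, nog2 lower in sap114 and ntr1, ipa1 lower in prp10 and ntr1, ade4 lower in ntr1, and fta3 lower in sap114 and ntr1. SPAC29A4.02C and pfd1 passed in no strain. The share of all junctions called higher or lower was 10.5% and 11.5% in prp10, 9.68% and 4.93% in prp22, 11.4% and 11.2% in cwf22, 19.2% and 18.5% in sap114, 1.43% and 1.85% in prp1, and 20.5% and 20.4% in ntr1. These comparisons share the WT libraries. Against the other 5 mutants, no snoRNA intron passed in any strain, with 0% of junctions called in either direction in each. At an unadjusted p under 0.05, rlp7, nog2 and ade4 had lower values in ntr1, where 6.44% of the junctions did. At that p spt20 had a higher value in prp1, with 4.71% of the junctions, and rlp7 in prp22, with 0.954%.

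Other introns of the same gene gave a second reference for 3 hosts. At spt20 the ratio of spliced reads in the snoRNA intron to the summed spliced reads of the gene's other 3 introns was 1.53 and 1.29 in WT. It was 0.297 in prp10 and 0.545 in prp22, 0.194 in cwf22 and 0.138 in sap114, and 0.899 in prp1 and 0.508 in ntr1, below WT in all 6. Those other introns were themselves mostly unspliced in the mutants, at 74.2% (prp1) to 98.3% (ntr1) against 20.4% and 25.4% in WT. In an edgeR fit of that ratio over 2325 introns the spt20 intron fell by 1.42 on the log2 scale (SE 0.316, adjusted p = 0.034), with 0.817% of introns called lower. It did not pass with DESeq2 (adjusted p = 0.13) or limma (0.46), nor in edgeR without prp10 (0.053), prp22 (0.056), ntr1 (0.052), WT replicate 1 (0.27) or WT replicate 2 (0.40). At cpc2 the ratio to the other intron was 0.823 and 0.923 in WT and 0.740 to 0.965 in the mutants, with an edgeR log2 difference of 0.01 (SE 0.106, adjusted p = 1.00). At pfd1 it was 0.447 and 0.440 in WT and 0.321 to 0.601 in the mutants, with 0.06 (SE 0.230, adjusted p = 0.96). At both, the ranges of the groups overlapped, so the higher level of spliced reads at the cpc2 intron was shared by the other intron of its gene. That other cpc2 intron was itself unspliced at 34.5% (prp1) to 86.3% (sap114) in the mutants against 9.91% and 11.7% in WT. The other introns of pfd1 were unspliced at 47.3% (prp1) to 66.5% (sap114) against 30.6% and 26.3%.

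Among the 336 exon-skipping pairings, 295 left out 1 exon, 32 left out 2, 8 left out 3 and 1 left out 4. The single-exon skips had 965 of the 1041 reads, and 192 of them had at least 1 read. The pairings lay in 279 genes, of which 50 had 2 or more, with at most 4 in 1 gene (SPAC1002.07C). The skipped exon was coding throughout in 291 of the 295. Its length was a multiple of 3, which keeps the reading frame, in 97 (32.9%), and in 64 of the 192 with reads (33.3%), against 36.9% of all 2666 internal exons of the annotation.

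Skipped exons were short. The median length was 89 nt for the 295, 87 nt for the 192 with reads and 74.5 nt for the 18 with 10 or more reads, against 137.5 nt for all internal exons and 149 nt for those with no listed skip. At least 1 skipping read was found for 47 of 278 internal exons of up to 50 nt (16.9%, Wilson 95% interval 13 to 21.8%), 74 of 648 of over 50 to 100 nt (11.4%, 9.19 to 14.1%), 49 of 773 of over 100 to 200 nt (6.34%, 4.83 to 8.28%) and 22 of 967 longer ones (2.28%, 1.51 to 3.42%). Shorter exons also had more flanking spliced reads, with a median over the libraries of 250.5 in the shortest class and 102.5 in the longest. Within the 25% of exons with the most flanking reads the order was the same: 31 of 105 (29.5%), 42 of 187 (22.5%), 32 of 210 (15.2%) and 10 of 165 (6.06%). In each of 4 depth classes of 25% the exons with a skipping read were shorter at the median than those without, at 86.5 against 169, 89 against 159, 83 against 135.5 and 89 against 119 nt.

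**Figure D3:**
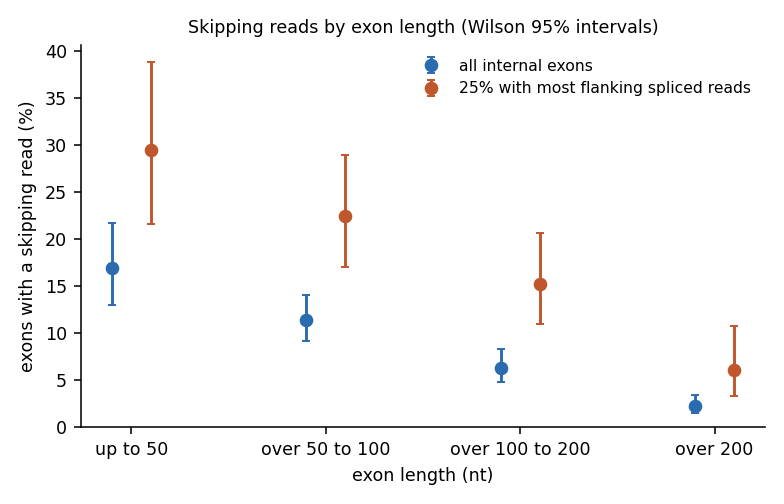
Percent of internal exons with at least 1 skipping read over the 8 libraries, by exon length, for all 2666 exons and for the 25% with the most flanking spliced reads; bars are Wilson 95% intervals, which cover counting error only. The percent falls from 16.9 to 2.28 and from 29.5 to 6.06 with length.

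The chance to see a skip also went with depth, from 2.40% of the exons in the 25% with the fewest flanking reads through 2.85% and 6.31% to 17.2% in the deepest 25%. The gene groups, chosen by symbol, have to be read against that. Respiratory chain genes had a skipping read at 14 of 33 internal exons (42.4%), proteasome and ubiquitin genes at 9 of 61 (14.8%), vesicle traffic genes at 9 of 123 (7.32%), spliceosome genes at 5 of 83 (6.02%) and ribosomal protein genes at 3 of 16 (18.8%), against 7.20% of all internal exons. The median of flanking spliced reads was 2651 for the respiratory chain group, 137 over all exons and 10823.5 for the ribosomal protein group. None of the 4 internal exons of the mutated genes had a skipping read. In the intron after the skipped exon the first 6 bases were GTAAGT in 35 of the 192 (18.2%) and 722 of all 2666 (27.1%). Listed exons without a skipping read were also low, at 21 of 103 (20.4%), and exons not listed stood at 666 of 2371 (28.1%). The lower share was thus not limited to exons with skipping reads. GTATGT stood at 18.2% of the 192 and 19.4% of all 2666.

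The reads of the 338 pairings that are not snoRNA introns were then set against the annotated introns at their ends. These include the 2 junctions with a single annotated end (8 reads), which have an annotated intron at that end only. The share is the reads of the pairing over those reads plus the mean of the spliced reads of the annotated introns at its 5′ and 3′ ends, summed over all pairings. It was 0.142% (Wilson 95% interval 0.113 to 0.178%) and 0.132% (0.112 to 0.157%) in the WT libraries, on 74 and 136 reads. In the mutants it was 0.246% in prp10 (100 reads) and 0.268% in prp22 (168), 0.211% in cwf22 (84) and 0.302% in sap114 (135), and 0.185% in prp1 (167) and 0.324% in ntr1 (185). Every mutant lay above both WT libraries, with means of 0.256 ± 0.0531% (SD, n = 6) and 0.137 ± 0.00688% (n = 2).

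That order depended on which reads stood below the line. With unspliced reads of the same introns added to the denominator, the share was 0.1279% and 0.1179% in WT and 0.0818% (cwf22) to 0.1175% (prp1) in the mutants, with all 6 below both WT libraries. The prp1 library lay below the nearer WT library by far less than the WT libraries lay apart. The flanking introns were unspliced at 10.02% and 11.0% in WT and 36.6% (prp1) to 74.6% (ntr1) in the mutants. The skips of 1 exon averaged 0.301 ± 0.0671% of spliced reads in the mutants (SD, n = 6), all above WT at 0.149 ± 0.00367% (SD, n = 2). With unspliced reads added, 5 mutants lay below both WT libraries for these skips, and prp1 lay above both, at 0.1365% beside 0.1323% and 0.1353%. The pairings that skip 2 or more exons stood at 0.0929 ± 0.0185% of spliced reads in the mutants and 0.0827 ± 0.0450% in WT, with 1 mutant above both WT libraries. Per 100,000 annotated spliced reads all pairings together stood at 19.9 and 18.4 in WT and 25.4 to 45.8 in the mutants. Since the pairings were taken as a set with earlier results known, no test was made of these sums.

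**Figure D4:**
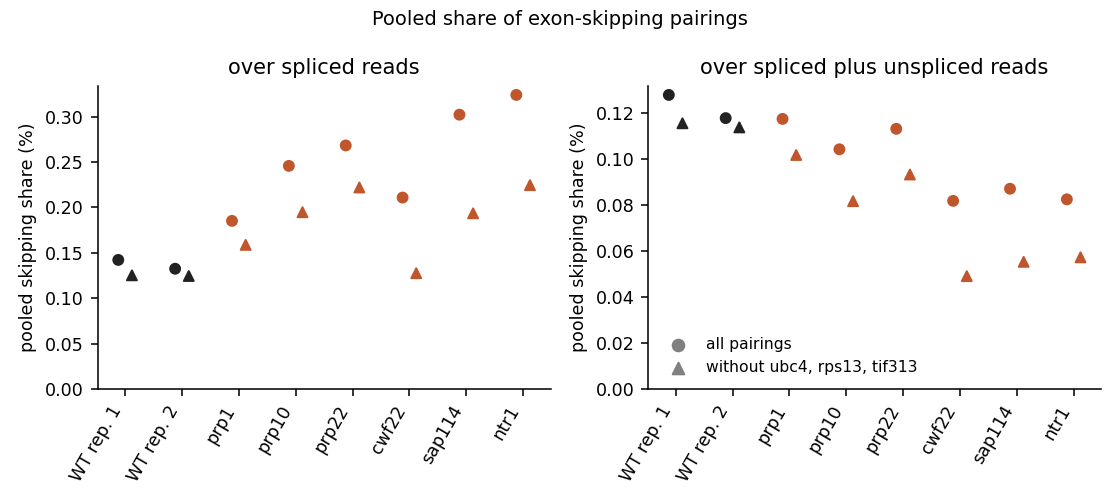
Pooled share of the 338 pairings in each library (percent), over spliced reads (left) and over spliced plus unspliced reads (right), with all pairings (circles) and without those of ubc4, rps13 and tif313 (triangles); WT in black, mutants in colour. The mutants lie above WT on the left and below WT on the right.

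A few junctions carried part of the difference. Without ubc4, rps13 and tif313 the share over spliced reads was 0.125% and 0.124% in WT and 0.195%, 0.222%, 0.128%, 0.194%, 0.159% and 0.225% in prp10, prp22, cwf22, sap114, prp1 and ntr1. The cwf22 library then stood within counting error of WT, with an interval of 0.0953 to 0.171%. Reads were seen in both groups at 75 of the 338 pairings, in mutants alone at 128, in WT alone at 24 and in neither at 111, with 6 mutant and 2 WT libraries. At the depth of the shallowest library, 293918 annotated spliced reads, the expected number of pairings with a read was 43.0 and 36.2 in WT and 57.3, 59.8, 40, 50.1, 46.8 and 62.6 in the mutants in the same order. The groups overlapped there, through cwf22.

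The pairing of ubc4, which encodes a ubiquitin-conjugating enzyme, skips a coding exon of 78 nt (chrII:715532-715609), the first of the exons printed above, and keeps the frame. It had 3 and 6 reads in WT, and 9 in prp10 and 14 in prp22, 20 in cwf22 and 29 in sap114, and 14 in prp1 and 42 in ntr1. Its share of spliced reads was 0.114% and 0.119% in WT, and 0.374%, 0.355%, 0.851%, 0.961%, 0.285% and 1.23% in the mutants in that order. All 6 mutants lay above both WT libraries, with cwf22, sap114 and ntr1 well above the other 3. The means were 0.676 ± 0.392% (SD, n = 6) and 0.117 ± 0.00374% (n = 2). The intron before the exon was unspliced at 0.712% and 1.07% in WT and 9.85% (prp1) to 55.6% (sap114) in the mutants, and the intron after it at 10.3% and 12.3% in WT and 44.0% (prp1) to 83.9% (ntr1). With unspliced reads in the denominator the means were 0.262% and 0.109%, and all 6 mutants still lay above both WT libraries.

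The pairing of tif313, which encodes a subunit of translation initiation factor 3, skips a coding exon of 157 nt (chrI:386458-386614), whose length is not a multiple of 3. It had 0 reads in both WT libraries, and 14 in prp10 and 13 in prp22, 14 in cwf22 and 22 in sap114, and 4 in prp1 and 18 in ntr1. The share of spliced reads was 6.95% in prp10 and 6.52% in prp22, 9.09% in cwf22 and 15.9% in sap114, and 1.03% in prp1 and 9.07% in ntr1, while 0 reads allow up to 1.49% and 0.811% in the WT libraries. Over spliced reads the mutants therefore averaged at least 7.02-fold above WT, with 5 of the 6 above both limits and prp1 between them. The flanking introns were unspliced at 1.61% to 3.51% in WT, and at 49.7% to 81.0% in the mutants other than prp1, where they stood at 25.2% and 37.7%. With unspliced reads in the denominator the mutant mean was 2.42 ± 1.01% (SD, n = 6), and 0 reads allow up to 1.45% and 0.787% in WT. The mutant mean was then at least 2.16-fold above WT, with 5 mutants above both limits and prp1, at 0.691%, below both.

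The pairing of rps13, which encodes the ribosomal protein uS15, skips a coding exon of 33 nt (chrI:2746303-2746335) and keeps the frame. It had 12 and 14 reads in WT, and 7 in prp10 and 19 in prp22, 5 in cwf22 and 8 in sap114, and 21 in prp1 and 12 in ntr1. Its share of spliced reads was 0.576% and 0.344% in WT and 0.246% (cwf22) to 0.542% (prp22) in the mutants, so that the groups overlapped. The intron before the exon was unspliced at 1.00% and 1.58% in WT and 9.05% (prp1) to 58.6% (ntr1) in the mutants. The intron after it was largely unspliced in WT already, at 60.1% and 62.4%, and at 65.2% to 81.6% in the mutants.

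**Figure D5:**
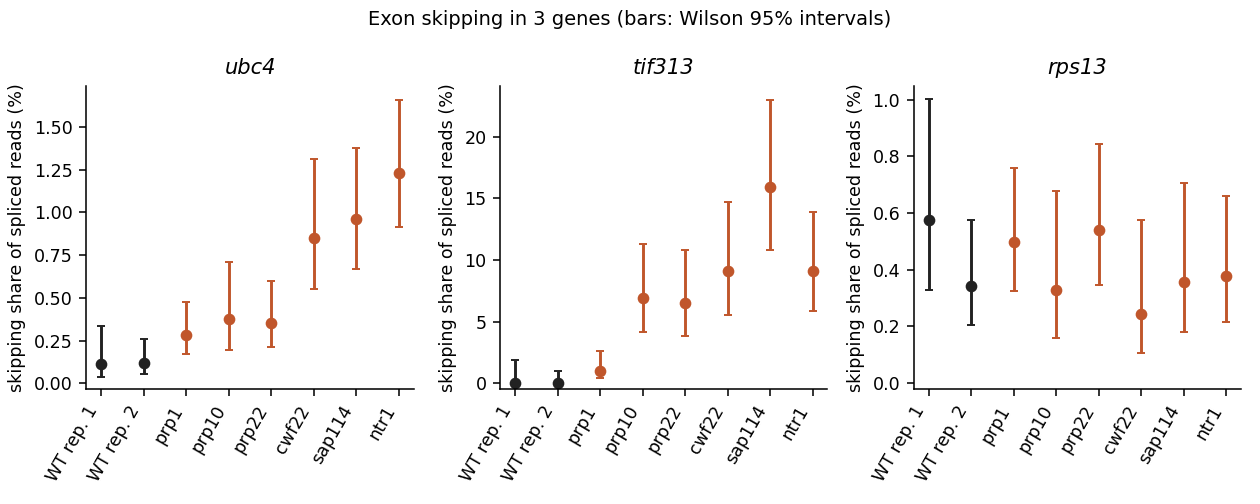
Share of spliced reads that skip the exon (percent) in ubc4, tif313 and rps13, for each library; bars are Wilson 95% intervals, which cover counting error only. In ubc4 all 6 mutants lie above both WT libraries. In tif313 WT had 0 reads, and 5 of the 6 mutants lie above the WT bars, which reach 1.875% and 1.028%. The prp1 share, at 1.026%, lies just below the top of the WT replicate 2 bar and well below that of replicate 1. It lies between the limits of 3 counts used in the text, which are not drawn. In rps13 the groups overlap.

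Each pairing was tested against its annotated introns, mutants as a class against WT, with a quasi-likelihood fit in edgeR of the junction reads and the annotated spliced reads, so that no scaling between libraries enters. The fit held 98 junctions with 30 or more reads, of which 57 used another 3′ site, 38 another 5′ site and 3 were these pairings. The tif313 pairing passed (adjusted p = 0.014), as 1 of 3 members called higher, with 2.04% of the 98 called higher and 1.02% lower. All 85 of its reads came from mutants, so it met the minimum of 30 reads only through the group where it is high, and the call is given as a description. Its fitted log2 difference rests on the 0 reads of WT and is no measure of size. The ubc4 pairing had a log2 difference of 2.35 (SE 0.655, adjusted p = 0.053, higher in 6 of 6) and the rps13 pairing -0.16 (SE 0.432, adjusted p = 0.98) in edgeR. The ubc4 pairing had 3 and 6 reads in WT, so it too met the minimum of 30 reads mostly through mutant reads. Its values are likewise given as a description. Of the 98 junctions 8.16% had all 6 mutants above both WT libraries, as ubc4 and tif313 did, and 9.18% all below. In edgeR the tif313 pairing did not pass without cwf22 (adjusted p = 0.052), WT replicate 1 (0.13) or WT replicate 2 (0.28). The ubc4 pairing passed in 5 of the 15 alternatives over spliced reads. These were DESeq2 (adjusted p = 0.039) and, in edgeR, the comparison with the intron of its 5′ site only (0.0027) and the fits without prp10 (0.040), prp1 (0.012) or ntr1 (0.048). It did not pass with limma, with the intron of its 3′ site only, with other minima of reads, or without prp22, cwf22 or sap114. The fits without WT replicate 1 or 2 were not among the 5 that passed either. Their log2 differences for ubc4 were 2.33 and 2.37.

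Exact permutation of the 8 libraries, two-sided over 28 splits, gave p = 0.11 for the share of ubc4, 0.11 for tif313 and 0.54 for rps13 (0.16, 0.16 and 0.54 after Benjamini-Hochberg adjustment over the 3). A split can give no p below 0.036.

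Strain by strain against WT, edgeR called the tif313 pairing higher in prp10 (adjusted p = 0.00036), prp22 (0.0013), cwf22 (0.00017), sap114 (4.2e-07) and ntr1 (1.4e-05), and not in prp1 (0.50). These calls too are of a junction that met the minimum through mutant reads alone. It called the ubc4 pairing higher in cwf22 (log2 difference 2.84, SE 0.644, adjusted p = 0.00065), sap114 (3.01, SE 0.583, 3.1e-05) and ntr1 (3.37, SE 0.533, 2.5e-07). In prp10, prp22 and prp1 the ubc4 differences were 1.66, 1.57 and 1.26, with adjusted p of 0.27, 0.21 and 0.61 in edgeR. The ubc4 pairing met the minimum of reads mostly through mutant reads, so its calls are a description too. The rps13 pairing passed in no strain, with differences from -0.77 (cwf22) to 0.35 (prp22). Of the 98 junctions, the share called higher was 4.08% in prp10 and prp22, 7.14% in cwf22 and sap114, 1.02% in prp1 and 12.2% in ntr1. With a minimum of 10 reads, which admits 19 pairings among 283 junctions, 5 pairings were called higher in sap114, where 5.65% of the junctions were, and 4 in ntr1, where 7.77% were. That minimum sums 6 mutant and 2 WT libraries, so a pairing can be admitted through mutant reads alone. These counts are therefore a description, with 1 library per strain. With unspliced reads of the annotated introns added to the spliced ones, the rps13 pairing was called lower in ntr1 (log2 difference -1.18, SE 0.489, edgeR adjusted p = 0.030), as were 53.8% of 106 junctions.

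Whether 1 strain differed from the other 5 mutants was tested in the same way, with 4 residual degrees of freedom. No pairing passed in edgeR or DESeq2. In edgeR 1.02% of the 98 junctions were called higher in prp10 and 0% in either direction elsewhere. The nearest was tif313 in prp1, with a log2 difference of -3.25 (SE 0.803, unadjusted p = 0.0017, adjusted p = 0.11), where 10.2% of the 98 junctions were lower at an unadjusted p under 0.05. It passed when ntr1 was left out (adjusted p = 0.014). The prp1 library also had the lowest unspliced share at the flanks of the pairings among the mutants. The part of retention in these differences was not tested.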

How the data were processed

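The deposited table gives counts of spliced and unspliced reads per junction and library, per the file headers. STAR 2.5, bedtools 2.26 and build ASM294v2 are named in the submitters' processing notes. Libraries were poly(A) selected from 1 µg of RNA, per the labels' protocols. The sources used here do not give the read length, the authors' annotation or how they classed a junction. Gene names, introns and sequences came from RefSeq, assembly ASM294v3. Of 5144 annotated introns 5077 matched a reference intron.

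All junctions of the class were used. Single junctions were named at 30 or more reads over the 8 libraries. Annotated introns had 293918 to 740673 spliced reads per library, which limits rare pairings. Wilson intervals (95%) and limits at 0 reads (3 counts) cover counting error only, since reads are not independent molecules.

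Tests were edgeR 4.0.16 (R 4.3.3) quasi-likelihood fits on the junction's reads and the spliced reads of annotated introns sharing a site (10 or more in every library), with 1 coefficient per library and Benjamini-Hochberg adjustment at 0.05. For the 13 snoRNA introns that ratio does not exist, so the scaled counts, meant as an alternative, were used. The fit within genes was added after the data were seen. Log odds for limma used a pseudocount of 0.5. Alternatives used DESeq2 1.42.0, limma 3.58.1, other scalings, minima and denominators, and each library left out. The fits were tested on simulated counts with a spread set in advance. The scaled fit called 24% of 2-fold rises and 24% of 2-fold falls, so changes of that size are often missed. The class fit called 86.7% of 4-fold rises and 46.7% of 4-fold falls, and the fit within genes 93% and 86%. Other tools were matplotlib 3.10.9, pandas 2.3.3, scipy 1.17.1 and Python 3.11.15. Members, gene lists and tests were chosen with earlier results of these data known.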

Additional observations from a re-analysis of the deposited data

How the results depend on the processing

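The pooled share of the pairings, as a log2 ratio of mutants over WT, was 0.87, and 0.80 to 0.96 with each library left out in turn. It turned to -0.35 with unspliced reads in the denominator. It moved to 0.56 without the 3 pairings of 30 or more reads and to 0.54 for the pairings under 10 reads. As reads per 100,000 over the whole class, snoRNA introns included, the log2 ratio was 0.32, and -0.14 without the 3 junctions with the most reads. Scaled by the total of annotated spliced reads, the median log2 difference of all 5030 junctions was -0.27. Of all junctions in the class fit 2 of 98 were called higher, with 2 of 60 for the 5′ site alone and 5 of 98 with DESeq2. In that class fit 1 pairing was called higher. That count was 2 with the 5′ site alone or with DESeq2, and 0 to 2 with each library left out (0 without cwf22 or either WT library). Against WT 5 pairings were called higher in sap114 and 4 in ntr1 with a minimum of 10 reads, where 5.65% and 7.77% of 283 junctions were. Mutant reads alone can admit a pairing at that minimum, so these counts are a description. With unspliced reads added 1 pairing was called lower in ntr1 (rps13), as were 53.8% of 106 junctions. Against the other mutants 0 to 1 pairings were called lower in prp1 with a library left out (1 without ntr1). As scaled counts 2 members were called higher (ubc4 and tif313) and 1 lower (ero11), where 82 and 106 of all 5030 junctions were. Those called higher met the minimum of 30 reads mostly (ubc4) or only (tif313) through mutant reads. Scaling by totals gave 1 and 1, where 35 and 128 of all junctions were called. DESeq2 gave 5 higher, where 201 of all were. With a mutant library left out 0 to 5 members were higher and 0 to 2 lower. Fits with 1 WT library left are not in those ranges, so they do not show how far the calls need both. The largest counts came without prp1, where 485 and 496 of all junctions were called. Without prp10 no member was called, and 3 and 2 of all junctions were. Within genes the 1 lower call, among 19 of 2325 introns, became 0 with DESeq2 or limma, which called 1 and 0 introns lower. With a mutant library left out it was 0 to 1, a range that also leaves out the fits with 1 WT library. The causes were not tested. No paired analysis was possible because each mutant strain has 1 library and no number shared with WT. Without 1 WT library the strain fits against WT have no residual degrees of freedom and were not run. Depth limits most pairings: 111 junctions had 0 reads and 208 had 1 to 9.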
